A study of Bos taurus with 12 samples.

Results

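Mitochondrial ribosomal proteins are the protein part of the ribosomes that work inside mitochondria, and their genes were examined here in bovine embryos made in vitro. The members were every gene that a probe set of the array names alone and whose symbol starts with MRPL or MRPS followed by a number. These were 67 of the 9155 genes so named, 43 with an MRPL symbol and 24 with an MRPS symbol. A probe set is a group of short DNA probes that reads 1 transcript, and 84 probe sets named a member. Each gene was read from its probe set of highest mean signal. The rule for members used symbols and no measured difference between groups, but it was set with earlier results of these data known.

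The mitochondrial ribosome translates the few messages of the mitochondrial genome, which encode core subunits of the respiratory chain. Its RNAs come from mitochondrial DNA, whereas all of its proteins are encoded in the nucleus, made in the cytosol and imported. Part of these proteins descend from those of bacterial ribosomes, and part are found in mitochondria alone. Cleavage-stage embryos carry mitochondria inherited from the oocyte, which are immature in shape, and the blastocyst is the stage at which oxygen use rises in many mammals.

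The embryos were of Japanese Black cattle. One set came from oocytes of adult cows, collected at an abattoir, and the other from oocytes of prepubertal heifers aged 9 to 12 months, collected with a spay device on farms, so donor age and the way of collection cannot be told apart. All oocytes were matured in vitro, fertilized in vitro with thawed semen of a bull of this breed and grown in CR1aa medium, with serum after the second day. Each 8-16-cell pool held 50 embryos of day 3, 70 to 72 h past insemination, and each blastocyst pool held 10 expanded blastocysts of day 7, before hatching. The 2 stages and the 2 donor groups gave 4 groups of 3 pools, with 1 array a pool and 12 arrays in all (n = 3 in every group). Embryos were picked for normal morphology. The labels call the pools biological replicates and do not say whether they shared donors or a culture day. The p-values therefore reach no further than the spread between these pools. For each gene that spread was estimated mostly from other probe sets of like mean signal, and little from its own pools. Stage is also tied to pool size.

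The deposited values are linear signals, scaled by the authors so that each array had a trimmed mean near 500. The brightest of the 27 Bacillus subtilis controls on an array served as its background, which lay between 122 and 424 on 11 arrays and at 1664 on replicate 3 of the prepubertal 8-16-cell embryos. On that array the 100 brightest probe sets held 49.3% of all signal, against 23.3% to 32.7% on the others. The median of the 27 controls lay far lower, between 10.4 and 101 over the 12 arrays. The sources used here do not say whether the transcripts of these controls were added to the samples. If they were, this background is too high, and a signal at background does not show that a transcript was absent. The summed marker signals went with the stage labels: that of 3 trophectoderm markers was 59.8 to 534 in 8-16-cell embryos and 20700.1 to 51505 in blastocysts, and that of 7 oocyte and early-cleavage markers was 31341 to 264838 against 237 to 1716. Of these 7, 6 were lower in adult and 7 in prepubertal blastocysts, but by the test described below BMP15 and KPNA7 alone were called. NLRP5 differed by -1.13 and -0.27 (log2). ZP3 was higher in adult blastocysts (2.30, not called) and at background in both 8-16-cell groups. CDX2, GATA3, TFAP2C, NANOG and ZAR1 were not analysed here. Of 9 cumulus and granulosa markers, FSHR, PTX3, INHA and AMH were at background on all arrays, and the sum of the 9 was 1186 to 14578 in 8-16-cell embryos and 1518 to 3797 in blastocysts.

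Of the 67 members, 26 are large-subunit proteins with a counterpart in bacteria: MRPL2, MRPL3, MRPL4, MRPL9 to MRPL16, MRPL18 to MRPL24, MRPL27, MRPL28, MRPL30, MRPL32, MRPL34, MRPL35, MRPL36 and MRPL55. A further 19 are placed in the large subunit and were grouped as proteins of mitochondria alone: MRPL37, MRPL38, MRPL39, MRPL41 to MRPL46, MRPL48 to MRPL53, MRPL57, MRPL58, MRPS18A and MRPS30. MRPS18A and MRPS30 keep a small-subunit symbol although their proteins lie in the large one. MRPS18A is related to bacterial S18 and so is an exception in this group, and MRPL58 is a peptidyl-tRNA hydrolase that became part of it. In the small subunit, 13 members have a bacterial counterpart: MRPS2, MRPS5, MRPS6, MRPS7, MRPS9, MRPS11, MRPS14 to MRPS17, MRPS18B, MRPS24 and MRPS28. Another 8 small-subunit members, MRPS22, MRPS23, MRPS25, MRPS26, MRPS27, MRPS31, MRPS34 and MRPS35, are of mitochondria alone. MRPS36 was kept apart, since its protein has been placed in the oxoglutarate dehydrogenase complex. MRPL1, MRPL17, MRPL33, MRPL40, MRPL47, MRPL54, MRPS10, MRPS12, MRPS18C, MRPS21 and MRPS33 were not analysed here.

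Few members were read above background on every array. Only 4 were, namely MRPL15, MRPL18, MRPL32 and MRPL51, all of the large subunit. Another 12 were above background on 9 to 11 arrays, 36 on 4 to 8 and 12 on 1 to 3. The chosen probe sets of MRPL14, MRPS11 and MRPS25 were at background on all 12 arrays, though another probe set of MRPL14 was above it on 1 array, and a value at background is only an upper bound for the transcript. The number of members above background was 36, 35 and 27 of 67 in the adult 8-16-cell pools and 24, 20 and 10 in the prepubertal ones. It was 29, 53 and 38 in the adult blastocyst pools and 58, 39 and 47 in the prepubertal ones. As shares of the 67 these are 59.7% ± 18.1 in adult and 71.6% ± 14.2 in prepubertal blastocysts, against 48.8% ± 7.36 and 26.9% ± 10.8 at the 8-16-cell stage (mean ± SD, n = 3). The share of all genes above background moved in the same order, at 36.4% to 41.1% in adult and 44.4% to 49.4% in prepubertal blastocysts and at 31.9% to 39.5% and 8.57% to 31% at the 8-16-cell stage, so this order is not particular to the members. Whether the members' shares moved further than those of all genes was not tested. The members' counts overlap between the adult stages and not between the prepubertal ones, and the higher background of the prepubertal 8-16-cell arrays moves with this count; its part in it was not tested.

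**Figure D1:**
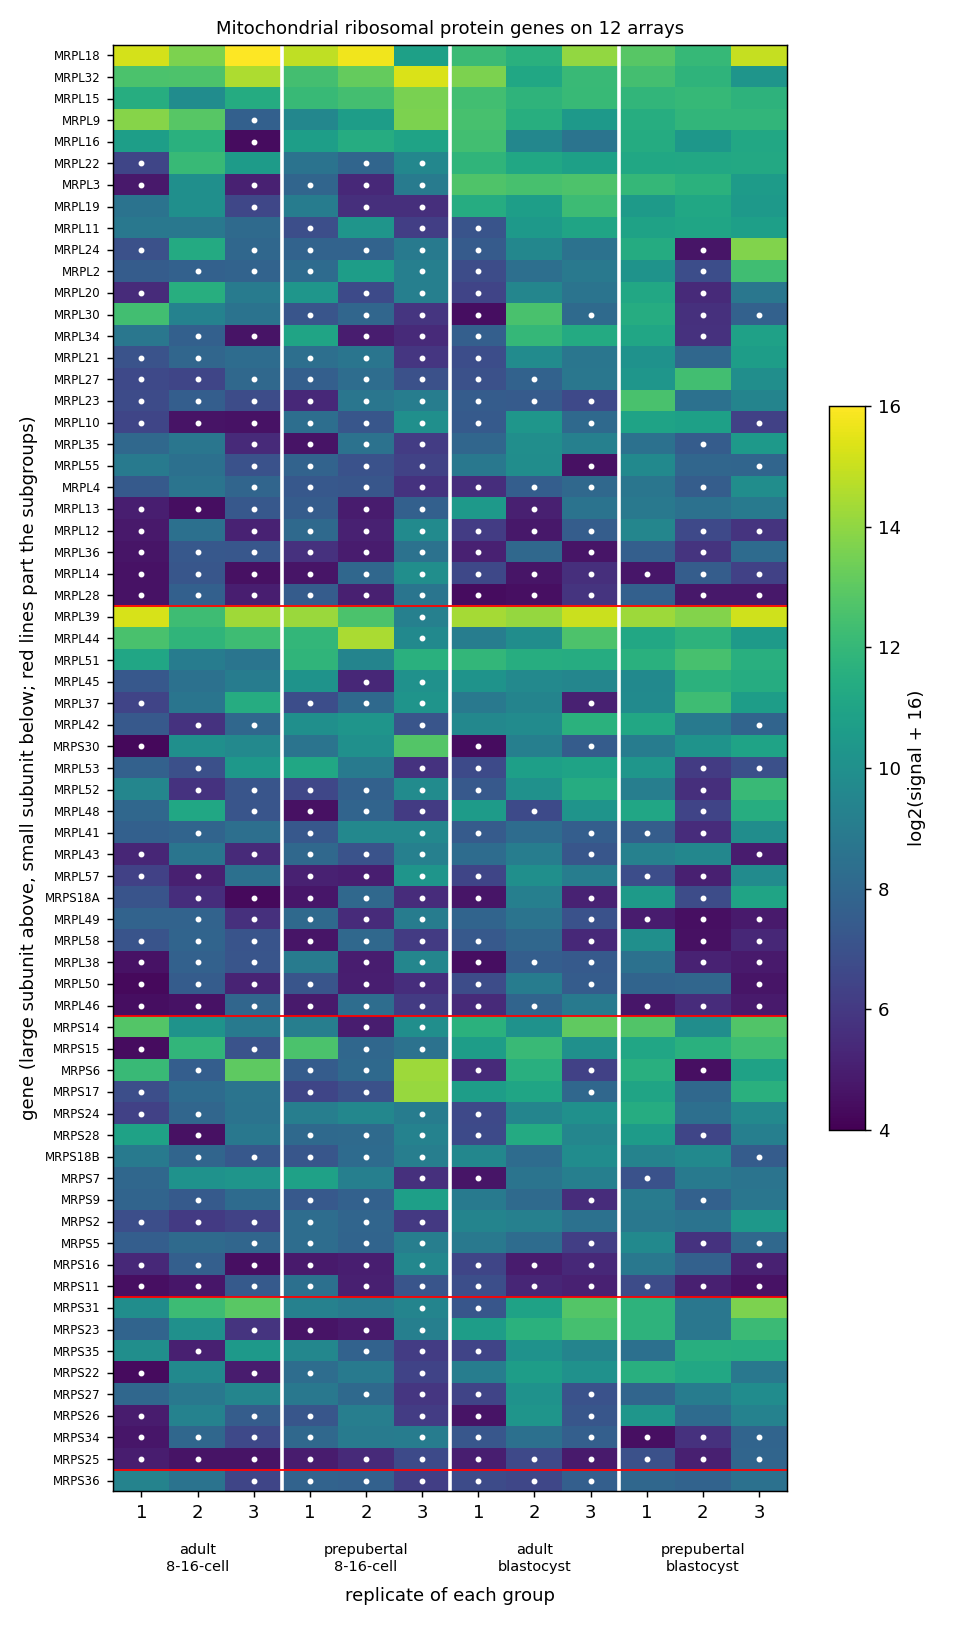
Colour gives log2(signal + 16) for 67 genes in rows on 12 arrays in columns, 3 for each group, and a white dot marks a signal not above the background of its array. Red lines part, from top to bottom, large-subunit proteins with a bacterial counterpart, large-subunit proteins of mitochondria alone, small-subunit proteins of these same kinds, and MRPS36; 3 rows (MRPL14, MRPS11 and MRPS25) are dotted throughout.

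The brightest member probe sets were those of MRPL39, MRPL18, MRPL32 and MRPL15, and the dimmest those of MRPL46, MRPS11, MRPL28 and MRPS25. Probe sets differ in how well they bind, so this order is not one of RNA amounts. MRPL39, a large-subunit protein of mitochondria alone that resembles threonyl-tRNA synthetase, had signals of 39306, 4894 and 20149 in the adult and 19031, 6177 and 574 in the prepubertal 8-16-cell pools, and of 21283, 17660.1 and 33703 and 19182, 13936 and 36356 in the adult and prepubertal blastocysts. The value of 574 comes from the array of high background and is the one not above it. MRPL15, the counterpart of bacterial L15, gave 2788, 911 and 2617 and 4357, 5489 and 12142 at the 8-16-cell stage and 5206, 3610.0 and 4353 and 3826, 4202 and 3479 in blastocysts, in the same order of donors. It had an SD over the 12 arrays of 0.86 on the log2 scale. At the other end, MRPS25 ranged from 8.54 to 228, MRPS11 from 6.84 to 330.0, MRPL28 from 5.34 to 384 and MRPL46 from 5.72 to 457. MRPL46 and MRPL28 were above background on 1 array each.

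Differences between groups were estimated with limma on log2(signal + 16), with p-values adjusted by Benjamini and Hochberg over all 24016 probe sets tested, and a gene was called at an adjusted p under 0.05. The first question was how the members differ between blastocysts and 8-16-cell embryos of adult cows. MRPL3 rose, and no other member passed the test in either direction. That is 1 of 67, where 2.13% of all probe sets were called, 1.26% higher and 0.87% lower. At an unadjusted p under 0.05, 8 members were higher and 2 lower, against 6.37% and 4.77% of all probe sets. The members' shares of calls were thus near the background. All 3 blastocyst arrays lay above all 3 8-16-cell arrays for 9 members, MRPL3, MRPL10, MRPL15, MRPL19, MRPL42, MRPL45, MRPL51, MRPS2 and MRPS23, and below them for 0, where 9.55% and 7.62% of all probe sets did so. The 9155 genes, each read from 1 probe set like the members, are the closer match. Of these 3.17% were called, 821 were higher and 563 lower at an unadjusted p under 0.05 by limma, and 12.1% and 8.92% did not overlap. The median difference of the 67 members was 0.66 (log2), with 45 above 0 and a range of -3.14 to 5.99. Over all 9155 genes it was 0.13, with 53.6% above 0. A typical member's difference had a standard error (SE) of 1.46, and that of all genes 1.35.

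MRPL3 is the counterpart of bacterial L3, a protein of the large subunit near the site of peptide bond formation, and it is mutated in an inherited disorder of mitochondrial translation. Its signal was 11.9, 995 and 18.6 in the 3 adult 8-16-cell pools and 6586, 5806 and 6479 in the 3 adult blastocyst pools. The blastocyst pools were alike and all above, while among the 8-16-cell pools replicate 2 alone was above background. The log2 means were 6.63 ± 2.90 and 12.62 ± 0.10 (SD, n = 3), a difference of 5.99 (SE 1.47, 95% interval 3.10 to 8.88, adjusted p = 0.00817) on the log2(signal + 16) scale. Since 2 of the 3 8-16-cell pools were at background, this size depends on signals that are only upper bounds: with all signals raised to the highest background of any array, the difference was 1.91 (SE 0.42, adjusted p = 0.0303). That step gives the 3 8-16-cell pools the same value and so takes out their spread. Its smaller SE and its adjusted p therefore add nothing to the call. Without replicate 1 or replicate 3 of the adult 8-16-cell pools, the 2 dim ones, the difference was 5.07 and 5.23 and the adjusted p 0.0756 and 0.0742, so the call was lost. In embryos of prepubertal heifers MRPL3 had 225, 25.4 and 493 at the 8-16-cell stage, all at background, and 4105, 3216 and 1519 in blastocysts. These groups do not overlap either, but the difference of 3.99 (SE 1.47) did not pass, with an adjusted p of 0.142. Against the dim pools raised to their arrays' background it comes to at least 4.20-fold.

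**Figure D2:**
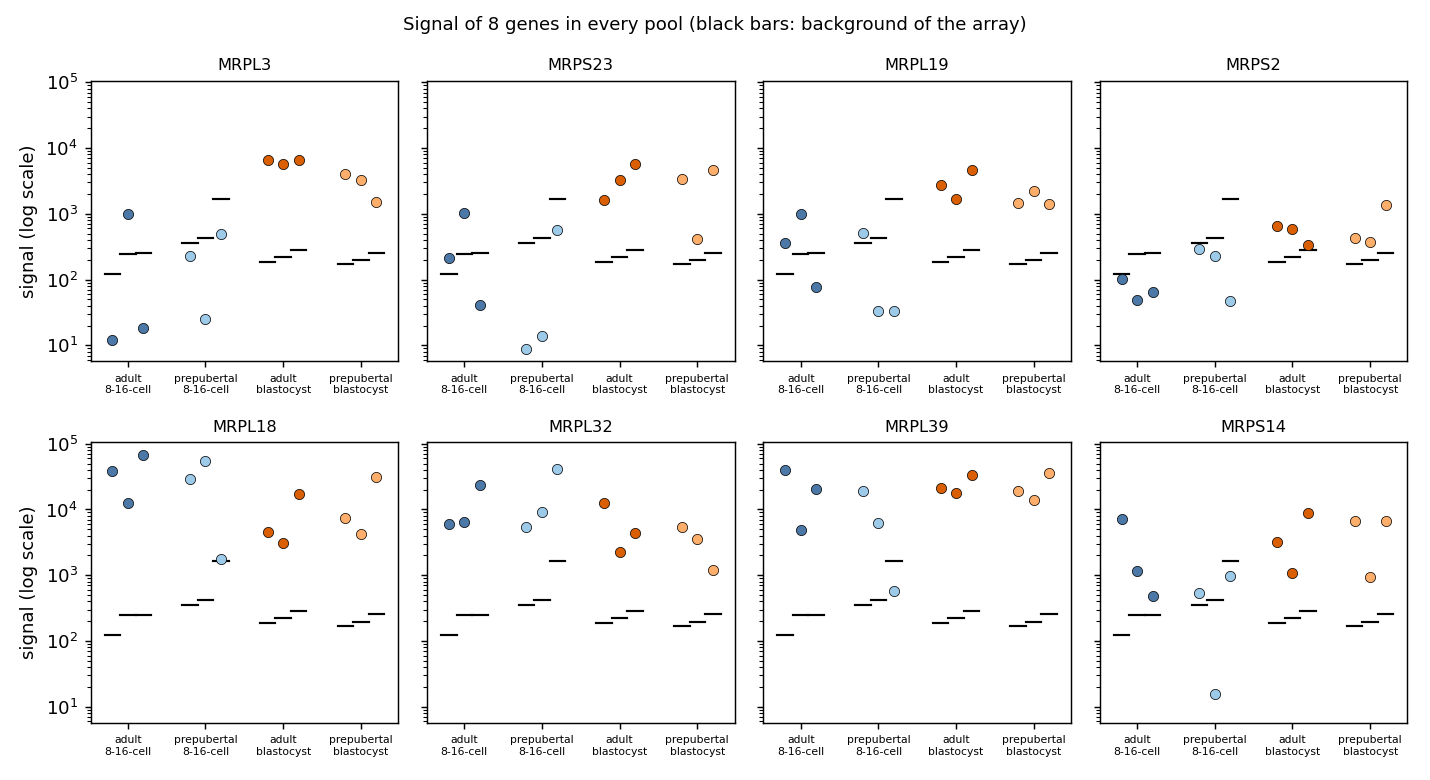
Points give the signal (log scale) of 8 genes in each of 12 pools, in 4 groups of 3, and black bars give the background of each array. MRPL3, MRPL19 and MRPS2 have all 6 blastocyst pools above all 6 8-16-cell pools, whereas MRPL18 and MRPL32 have their highest signals, 66963 and 40942, in 8-16-cell pools.

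In embryos of prepubertal heifers no member was called between blastocysts and 8-16-cell embryos (0 of 67, by limma), where 2.34% of all probe sets were, 1.43% higher and 0.912% lower. At an unadjusted p under 0.05, 9 members were higher and 2 lower, against 5.91% and 7.85% of all probe sets. The groups did not overlap for 10 members that were higher in blastocysts, MRPL3, MRPL4, MRPL11, MRPL13, MRPL19, MRPL22, MRPL27, MRPL55, MRPS2 and MRPS36, and for 4 that were lower, MRPL15, MRPL32, MRPL49 and MRPS34. The same happened for 7.35% and 9.24% of all probe sets, and for 10.8% and 8.91% of the 9155 genes read from 1 probe set each. Of these genes 3.95% were called, and 868 were higher and 713 lower at an unadjusted p under 0.05 by limma. The median difference of the members was 0.86 with 45 of 67 above 0 and a range of -2.80 to 4.67, while that of all genes was -0.16 with 46.6% above 0. Relative to all genes the members' median was therefore 1.02 here and 0.53 in the adult group. With all signals raised to the highest background of any array, these medians were 0.22 and 0, over the 40 members that kept a value above it. The smallest adjusted p was that of MRPS23, at 0.0667. Of the cumulus and granulosa markers, STAR, which brings cholesterol into mitochondria of steroid-making cells, was lower in the same comparison (-5.43, SE 1.47, adjusted p = 0.0203, at least 13.4-fold); its part in the members' values was not tested. Of the 9 markers 3 differences were above 0 and 6 below, and STAR alone was called. HAS2, another of them, had higher signals in all 3 blastocyst pools (2.90, SE 1.47, adjusted p = 0.363) and was not called.

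Among large-subunit proteins with a bacterial counterpart, 26 members, the median stage difference relative to all genes was 0.13 in the adult and 1.53 in the prepubertal group. MRPL19, whose bacterial counterpart lies where both subunits meet, had signals of 359, 989 and 77.1 in adult 8-16-cell pools and 2729, 1654 and 4723 in adult blastocysts. In the prepubertal group they were 512, 33.6 and 33.4 and 1458, 2246 and 1398. Every blastocyst pool was above every 8-16-cell pool, and the differences of 3.09 and 3.94 (SE 1.47 each) had adjusted p of 0.383 and 0.148. MRPL10 forms the base of the stalk that recruits translation factors and holds MRPL12, which also binds the mitochondrial RNA polymerase. It had 74.2, 8.99 and 7.86 in adult 8-16-cell pools, all at background, and 152, 1248 and 256 in adult blastocysts, of which replicate 2 alone was above background (difference 3.36, SE 1.47, adjusted p = 0.306). MRPL12 itself differed by 0.01 (SE 1.37) and was above background on 2 arrays.

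MRPL18 and MRPL32 lay on the other side of 0. MRPL18 is the counterpart of bacterial L18, which binds the smallest ribosomal RNA in bacteria, and its signal was 38019, 12599.8 and 66963 in adult 8-16-cell pools and 4622, 3129.6 and 17228 in adult blastocysts. Replicate 3 of the blastocysts lies within the range of the 8-16-cell pools, and the difference of -2.33 (SE 0.93, adjusted p = 0.228) did not pass. The SDs of MRPL18 were 1.22 and 2.63 (log2) in adult and prepubertal 8-16-cell pools and 1.29 and 1.49 in the blastocysts. Its SE was set mostly by other probe sets of like signal. Without replicate 3 of the prepubertal 8-16-cell pools, which enters only the shared estimate of the spread, the adjusted p of the adult difference was 0.0414. In the prepubertal group the values were 29347, 54421 and 1772 and 7420.0, 4239 and 31284, a difference of -0.51 (SE 0.93). MRPL32 is matured by the m-AAA protease of the inner membrane before it joins the ribosome. It had 5433, 9251 and 40942 in prepubertal 8-16-cell pools and 5379, 3531 and 1218 in prepubertal blastocysts, which do not overlap (difference -2.15, SE 1.07, adjusted p = 0.35). In the adult group the signals overlap, with 6111, 6479 and 23530.0 and 12525, 2250.4 and 4453.

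Among the 19 large-subunit members of mitochondria alone, the median stage difference relative to all genes was 0.59 in the adult and 0.51 in the prepubertal group, with none called. MRPL39 differed by 2.38 (SE 0.92, adjusted p = 0.174) in the prepubertal group, and by 0.57 (SE 0.92) in the adult group. Its SDs were 1.53 and 2.56 (log2) in adult and prepubertal 8-16-cell pools and 0.48 and 0.70 in the blastocysts. Without replicate 1 of the prepubertal 8-16-cell pools, its brightest one, the prepubertal difference was 3.48 with an adjusted p of 0.0345, and with quantile normalization it was 2.98 with an adjusted p of 0.0441. MRPL44, which has a ribonuclease-like fold and is mutated in an inherited cardiomyopathy, had 6009.8, 3660.1 and 4916 in adult 8-16-cell pools and 530.0, 927 and 6441 in adult blastocysts, which overlap (difference -1.68, SE 1.26). MRPL51 was above background in all pools, at 2209, 515 and 385 in adult 8-16-cell embryos and 3991, 2801 and 2774 in adult blastocysts, and these pools do not overlap (difference 2.02, SE 1.31, adjusted p = 0.645). MRPL12, MRPL44 and MRPL51 were chosen after their values were seen.

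Among small-subunit members, the median stage difference relative to all genes was 0.84 and 0.75 for the 13 with a bacterial counterpart and 0.33 and 2.13 for the 8 of mitochondria alone, adult group first, with none called. MRPS23, of mitochondria alone, had 8.96, 13.6 and 559 in prepubertal 8-16-cell pools and 3432, 418 and 4671 in prepubertal blastocysts. The 8-16-cell pools were all at background, and blastocyst replicate 2 lies below 8-16-cell replicate 3, so the groups overlap. The difference was 4.67 (SE 1.49, adjusted p = 0.0667), or at least 2.94-fold against pools raised to background. Without replicate 3 of the prepubertal 8-16-cell pools, the array of high background, it was 6.14 with an adjusted p of 0.0123; it also passed with quantile normalization (5.17, adjusted p = 0.0302) and with array weights (5.24, adjusted p = 0.0378). The adult pools gave 214, 1023 and 40.6 and 1606, 3268 and 5634 and do not overlap (difference 3.71, SE 1.49, adjusted p = 0.23).

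MRPS22, mutated in an inherited disorder of the respiratory chain, had 4.37, 822 and 14.6 in adult 8-16-cell pools and 533, 1610.0 and 1058 in adult blastocysts. The 8-16-cell replicate 2 lies above blastocyst replicate 1, and the difference of 3.61 (SE 1.49) had an adjusted p of 0.255. MRPS14, the counterpart of bacterial S14, had 542, 15.5 and 957 in prepubertal 8-16-cell pools and 6769, 938 and 6757 in prepubertal blastocysts. The lowest blastocyst pool lies just under the highest 8-16-cell pool, which was at its array's background (difference 3.77, SE 1.39, adjusted p = 0.144). A second probe set of MRPS14, above background on 11 arrays, differed by 2.30 (SE 1.48, adjusted p = 0.515) in the prepubertal group. In the adult group it differed by -0.46, where the chosen one differed by 0.98. MRPS2, the counterpart of bacterial S2, was chosen after its values were seen because its 6 blastocyst pools, 663, 590.0 and 339.9 in the adult and 428, 369 and 1346 in the prepubertal group, all lay above its 6 8-16-cell pools, 103, 49.7 and 65.9 and 293, 228 and 46.8. All of the 8-16-cell pools were at background, and the differences of 2.61 and 1.87 (SE 1.45 each) did not pass, at adjusted p of 0.527 and 0.62. A second probe set of MRPS2, above background on 2 arrays, differed by 1.0 and -0.09 (SE 1.27 each), and its stages overlap. The adult difference is at least 2.47-fold against background.

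The donor groups share no arrays in their stage comparisons, so the members can be set side by side. Both differences were above 0 for 34 members and below 0 for 11, and they had opposite signs for 22. Across the 67 members Pearson's r between them was 0.39 and Spearman's rho 0.34, against 0.53 and 0.42 across all 9155 genes; genes are not independent replicates. MRPL3, MRPL19 and MRPS2 were the 3 members (4.48%) whose 6 blastocyst pools all lay above the 6 8-16-cell pools, and 3.68% of all genes did the same. None had all 6 below, where 1.94% of all genes did. In bulk RNA, fewer cells of a type and less RNA per cell cannot be told apart. A measure of RNA ends moved with stage: the log2 ratio of the 3′ to the 5′ control probe set of the elongation factor gene was -8.52 to -4.82 in 8-16-cell pools and -4.25 to -1.81 in blastocysts, and its part in the stage differences was not tested. The same ratio overlaps between stages for actin, at -2.67 to 3.25 and -1.21 to 5.20, and for GAPD, at -1.32 to 3.80 and 0.12 to 10.41.

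**Figure D3:**
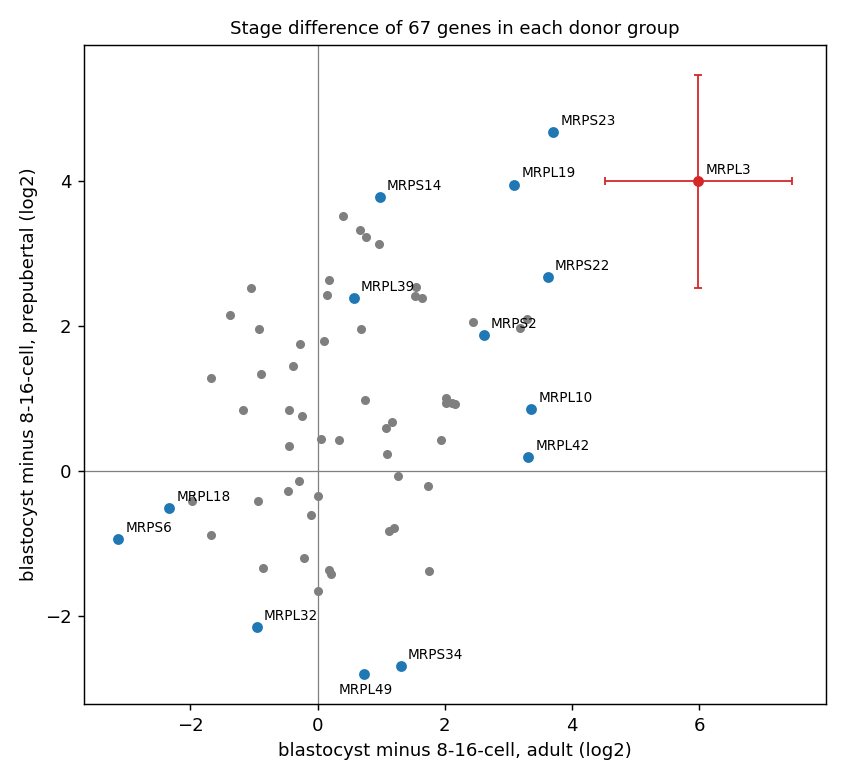
Each of 67 points is a gene, placed by its blastocyst minus 8-16-cell difference (log2) in embryos of adult cows (horizontal axis) and of prepubertal heifers (vertical axis); red marks MRPL3 with its standard errors, and blue marks other labelled genes. Of the points, 34 lie above 0 on both axes, 11 below 0 on both and 22 have opposite signs.

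The members were next set beside 2 other groups of genes on the same arrays, the respiratory chain, to which the mitochondrial ribosome contributes core subunits, and the cytosolic ribosome. Of all 9155 genes, 3.17% were called in the adult and 3.95% in the prepubertal stage comparison, both directions together. Of 79 respiratory chain genes 11 rose in blastocysts of the adult group and 28 in those of the prepubertal group, with 0 falling in either. Their median differences relative to all genes were 2.21 and 3.68. Of 65 cytosolic ribosomal protein genes, taken by symbol, 2 rose and 2 fell in the adult group and 27 rose and 0 fell in the prepubertal group, with medians of 1.69 and 3.47. The symbol rule also took in RPS19BP1, which is named as a binding protein of RPS19 and is not itself a ribosomal protein. The members' medians of 0.53 and 1.02 and their calls of 1 and 0 were smaller than either, and the differences between lists were not tested. Per array, the members' median signal minus that of all genes was 0.68, 0.71 and 0.61 (log2) in adult and 0.75, 0.08 and 0.99 in prepubertal 8-16-cell pools. In blastocysts it was 0.42, 2.15 and 1.12 in the adult and 2.67, 0.60 and 1.98 in the prepubertal group. Each blastocyst group holds 1 pool at the level of the 8-16-cell pools, adult replicate 1 and prepubertal replicate 2. In those same pools the respiratory chain stood at 3.63 and 3.77, near the other blastocyst pools, which lay at 3.91 to 4.61, and above all 8-16-cell pools, which reached 1.61. Adult blastocyst replicate 1 was the lowest of its group for 34 members (50.7%, against 40.4% of all genes), and prepubertal replicate 2 for 35 (52.2%, against 37.7%).

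**Figure D4:**
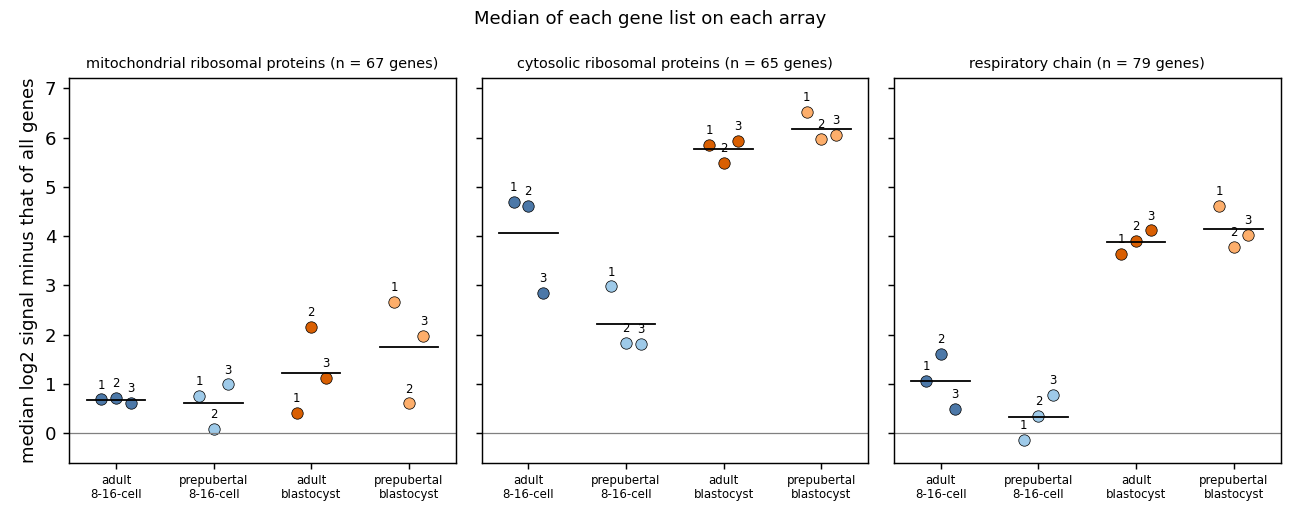
Each point is 1 array, numbered by replicate, and gives the median log2 signal of a gene list minus that of all genes; lines are means of 3 arrays. For the 67 mitochondrial ribosomal proteins adult blastocyst replicate 1 (0.42) and prepubertal blastocyst replicate 2 (0.60) lie among the 8-16-cell arrays, whereas every blastocyst array lies above every 8-16-cell array for the 79 respiratory chain genes and the 65 genes listed as cytosolic ribosomal proteins.

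Other genes of mitochondrial translation were read from lists of their own. Their counts of calls stand beside the 3.17% of all genes called in the adult and 3.95% in the prepubertal stage comparison. In lists this short, 1 or 2 calls are no result about the list. A list of 6 genes held mitochondrial ribosome proteins under other symbols, such as DAP3 and PTCD3, and also OXA1L, which is not a protein of the ribosome itself. None of the 6 was called, and their medians relative to all genes were 1.70 in the adult and 2.04 in the prepubertal stage comparison. Of 10 translation factors none was called in the adult group, and in the prepubertal group 1 rose and 1 fell. GFM1, an elongation factor that moves the ribosome along the message, rose by 5.44 (SE 1.46, adjusted p = 0.0187), at least 2.24-fold against 8-16-cell pools at background. MTRF1L, a release factor that ends translation, differed by -4.97 (SE 1.32, adjusted p = 0.0169) and was lower in blastocysts, of which replicate 2 was at background. Of 16 genes of ribosome assembly and ribosomal RNA modification, 2 fell in the adult group and 0 changed in the prepubertal group. MTERF3, which binds mitochondrial DNA and acts in assembly of the large subunit, differed by -4.75 (SE 1.26, adjusted p = 0.0184). FASTKD2, which binds the large ribosomal RNA, differed by -4.85 (SE 1.40, adjusted p = 0.0362), at least 4.05-fold lower, the blastocyst pools being at background and 2 of the 3 8-16-cell pools above it. None of 15 mitochondrial aminoacyl-tRNA synthetases and none of 12 genes of mitochondrial transcription and RNA upkeep was called at an adjusted p under 0.05 by limma; at an unadjusted p under 0.05 there were 3 and 0 in the adult and 3 and 0 in the prepubertal stage comparison.

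The second question was whether embryos from prepubertal and adult donors differ at 1 stage. At the 8-16-cell stage no member was called by limma, where 5 probe sets of all (0.0208%) were. At an unadjusted p under 0.05, 1 member was higher in the prepubertal group and 2 lower, against 6.96% and 2.06% of all probe sets. Of the 9155 genes, 522 were higher and 279 lower at that unadjusted p by limma. The pools did not overlap for 5 higher and 3 lower members, against 10% and 2.67% of all probe sets and 8.74% and 3.53% of all genes. The members' median difference was 0.38 with 62.7% above 0, and that of all genes was 0.46 with 62.7% above 0. MRPL10 had 74.2, 8.99 and 7.86 in adult and 309, 134 and 994 in prepubertal pools, which do not overlap. All 6 of these pools were at background, so the difference of 3.28 (SE 1.47, adjusted p = 0.51) is one between signals at background and has no fold. MRPL30, the counterpart of bacterial L30, had 5191, 616 and 366 in adult pools, all above background, and 127, 229.5 and 42.1 in prepubertal pools, all at it. These do not overlap either (difference -3.09, SE 1.53, adjusted p = 0.539), and the fold is at least 1.66. A second probe set of MRPL30, at background on all arrays, overlaps, at 55.2, 164 and 7.39 in adult and 163, 15.3 and 72.4 in prepubertal pools. MRPS31 of the small subunit had no overlap, at 943, 4725 and 7829.9 in adult and 604, 499 and 656 in prepubertal pools (difference -2.46, SE 1.38, adjusted p = 0.594). MRPL39 and MRPS14, whose pools are given above, differed by -1.94 and -2.64 (SE 0.92 and 1.39, adjusted p = 0.522 and 0.568). MRPS14 was at 7109.8, 1142 and 483 in the adult pools, which overlap the prepubertal ones.

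In blastocysts no member and no probe set of any kind was called between donor groups by limma (0%). At an unadjusted p under 0.05, 5 members were higher in the prepubertal group and 1 lower, against 2.43% and 1.25% of all probe sets, and every adjusted p rounded to 1. Of the 9155 genes, 251 were higher and 106 lower at that unadjusted p by limma. The pools did not overlap for 4 higher members, MRPL23, MRPL27, MRPL37 and MRPS36, and for 2 lower ones, MRPL3 and MRPL49. This was so for 6.04% and 3.78% of all probe sets and 6.39% and 3.84% of all genes. Another probe set of MRPL23, at background on all arrays, went the other way without overlap. It gave 15.2, 142.8 and 147.8 in adult and 3.77, 14.2 and 12.7 in prepubertal blastocysts. The remaining probe set of MRPL23, also at background on all arrays, overlaps. The members' median was 0.56 and that of all genes 0.18. MRPL27, whose bacterial counterpart reaches toward the site of peptide bond formation, had 109, 202 and 411 in adult and 1256, 5231 and 944 in prepubertal blastocysts (difference 3.03, SE 1.47). Adult replicate 3 alone among the adult pools was above background, and all prepubertal pools were. MRPL37 and MRPS30 are related large-subunit proteins: MRPL37 had 451, 662 and 18.6 and 837, 4875 and 1628 (difference 3.10, SE 1.5), adult pools first. MRPS30 had 4.92, 563 and 163 and 509.6, 1139.9 and 2001, which overlap (difference 3.05, SE 1.51). Adult replicate 1 was the dimmest pool for MRPS30 and adult replicate 3 for MRPL37.

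MRPL49 lay on the other side, at 218, 377 and 112 in adult and 14.3, 6.26 and 12.7 in prepubertal blastocysts (difference -3.08, SE 1.34). The prepubertal pools were all at background. MRPS18A and MRPS18B are paralogs related to bacterial S18. MRPS18A had 9.91, 559 and 19.4 in adult and 1449.5, 94.4 and 2047 in prepubertal blastocysts, which overlap (difference 3.10, SE 1.38). MRPS18B had 738, 291 and 884 and 645, 814 and 162 in the same order (difference -0.36, SE 1.47). At the 8-16-cell stage MRPS18A was above background in 1 pool, of the adult group (125, 32 and 3.70 in adult and 10.7, 252 and 30.3 in prepubertal pools), and so was MRPS18B (465, 229 and 140.0 and 131, 273 and 545).

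**Figure D5:**
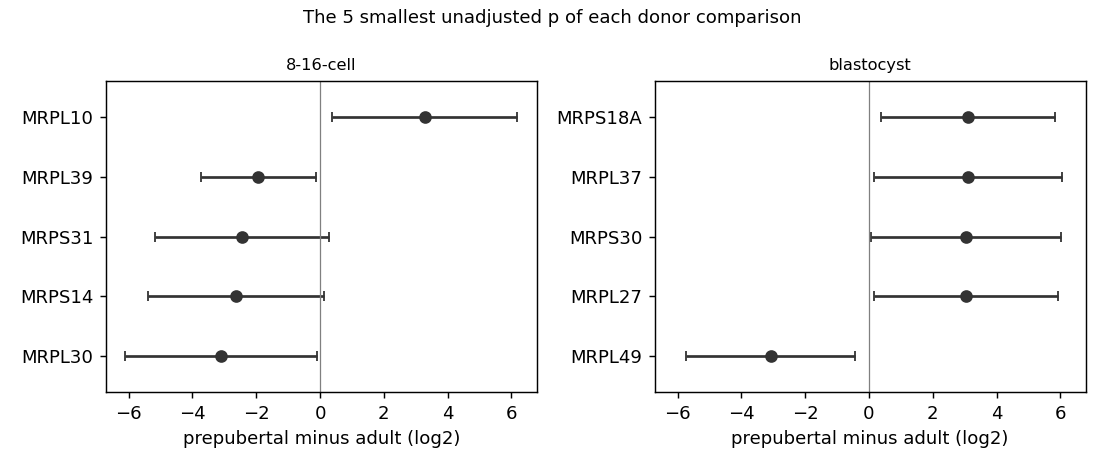
Points give the prepubertal minus adult difference (log2) of the 5 genes with the smallest unadjusted p at each stage, and bars its 95% interval from limma. No gene is shown in both panels, and the smallest adjusted p of all 10 was 0.51.

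A difference between the donor effects of both stages was called for no member and no probe set by limma (0%). At an unadjusted p under 0.05 there was 1 member, against 5.44% of all probe sets. This was MRPS34, a small-subunit protein of mitochondria alone, named here after its value was seen. It had 10.4, 244 and 84.6 in adult and 252, 501 and 516 in prepubertal 8-16-cell pools, and 138, 332 and 179.5 and 6.26, 36.8 and 218 in the blastocysts. Only 2 of these 12 values were above background, and the difference of effects was -4.0 (SE 1.98, adjusted p = 0.913). Its stage differences by this probe set were 1.31 in the adult and -2.69 in the prepubertal group, and by a second probe set, above background on 3 arrays, they had the opposite signs, -0.71 and 1.36 (SE 1.38 each). Over the members the differences of effects ran from -4.0 to 3.57 with a median SE of 2.06.

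The spread between pools of 1 group can be read from the SD. Its median over the members was 1.58 and 1.71 (log2) in adult and prepubertal 8-16-cell pools and 1.35 and 1.49 in the blastocysts, against 1.30, 1.55, 1.23 and 1.26 over all genes. A further 17 probe sets read the 11 members that had 2 and the 3 that had 3. Their stage difference had the sign of the chosen probe set for 4 of 17 in the adult and 11 of 17 in the prepubertal group, and none was called. The second probe set of MRPL39, above background on 5 arrays, differed by 4.0 (SE 1.34, adjusted p = 0.0885) in the prepubertal and -0.20 in the adult group, where the chosen one differed by 2.38 and 0.57. The third, above background on 1 array, differed by -0.75 and -0.33 (SE 1.04 each), in the same order. MRPL3, MRPL18 and MRPS23 were each named by 1 probe set, so they have no second reading here.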

How the data were processed

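Each of the 12 arrays was an Affymetrix bovine array hybridized with biotin-labelled cDNA made from amplified total RNA, per the labels' protocols. The deposited values are a linear signal intensity per probe set, made with MAS5 per the submitters' processing notes. No settings of MAS5 were given in the sources used here. The mean signal after trimming 2% at each end was close to 500 on every array. Of 24128 probe sets, 112 controls were left out and 24016 were tested, and 0 columns belonged to no sample. Probe sets were named from the platform annotation: 13292 name 1 gene, 86 several and 10638 none. All 84 member probe sets were found by gene identifier in the RefSeq gene table.

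Group means (4 groups, all 12 arrays) were fitted on log2(signal + 16) with limma 3.58.1 (lmFit, eBayes with trend) in R 4.3.3, two-sided, with 8 residual and 196 prior degrees of freedom. With so many prior degrees of freedom, the SE of a gene follows probe sets of like mean signal far more than its own pools. A fold is on the scale of signal + 16, which understates changes of dim probe sets. Folds given as at least use the dimmer group raised to its arrays' background when all 3 of its arrays are at it. The number of arrays limits the precision. Members given value by value were those called, the 5 of smallest p in each group comparison, the 4 of highest and of lowest mean signal, and the MRPS18 paralogs; others are marked. The members and lists were chosen with earlier results of these data known. The fit was tested on simulated data. Alternatives were other pseudocounts, quantile normalization, median centring, filters on dim signals, array weights, a replicate term, the mean over a gene's probe sets, separate fits and each array left out.

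Replicate numbers showed no sign of pairing the arrays: over 12 same-numbered pairs the correlation of deviations from the group means was -0.026 to 0.044. With 3 arrays a group, such low values cannot tell whether same-numbered pools shared donors or a culture day.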

Additional observations from a re-analysis of the deposited data

How the results depend on the processing

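The members' median relative to all genes moved under every alternative by less than 1 SD, taken as the pooled SD of the per-array medians in the 2 groups compared (0.62, 0.82, 0.33 and 0.97 in the order that follows), from 0 to 0.77 (stage, adult), 0.22 to 1.47 (stage, prepubertal), -0.23 to 0.14 (donor, 8-16-cell) and -0.11 to 0.70 (donor, blastocyst). The medians themselves were 0.53, 1.02, -0.08 and 0.38, smaller in size than this SD in all but the prepubertal stage comparison. A move to 0 or past it can thus stay within 1 SD, so this rule says little about how stable the medians are. Counts of members called stayed at 0 for both donor comparisons and for the difference of donor effects. In the adult stage comparison the count was 1, and 0 to 2 with 1 array left out: 0 without adult 8-16-cell replicate 1 or 3, and 2 (MRPL3, and MRPL18 lower) without prepubertal 8-16-cell replicate 3. In the prepubertal stage comparison it was 0, but 2 with quantile normalization (MRPL39 and MRPS23), 1 with array weights (MRPS23) and 0 to 1 with 1 array left out, the 1 being MRPL39 without prepubertal 8-16-cell replicate 1 and MRPS23 without replicate 3; the cause was not tested. MRPL3 kept its direction under all 22 alternatives, with an adjusted p from 0.00147 to 0.0756 in the adult stage comparison. With all signals raised to the highest background of any array, 40 members kept a value above it, and 4 named differences had no value. The lowest stage medians, 0 and 0.22, come from this setting, over those 40 members, and the adult difference of MRPL3 was 1.91 there. A replicate block, with the replicate number as a term, left 1 member called in the adult stage comparison (MRPL3, adjusted p = 0.00872) and 0 in the others, and changed no other call. Signal over background, as it was set here, is the limit for many members, since by their chosen probe sets 12 were above it on 1 to 3 arrays and 3 on none.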
